A study of Mus musculus with 12 samples.

Results

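Tags of the mouse hippocampus that differ from a known microRNA (miRNA) hairpin at a single base, read as G where the hairpin has A, are candidates for adenosine-to-inosine (A-to-I) editing. They were taken from the distinct small-RNA sequences (tags) of 12 libraries. A tag was kept when it matched no annotated hairpin or other small RNA exactly and carried the A-to-G difference at tag positions 2 to 17. Only miRNA arms with 1000 or more exact counts over the 12 libraries were used, which left 235 arms of 1716. In all, 5220 of the 17196409 distinct tags met the rule, with 605121 of the 70809892 accepted reads (0.855%). Reads with an A-to-G difference were found at 1056 of the 1475 hairpin adenosines covered on these arms.

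Small RNA was sequenced from the hippocampus of individual C57BL/6NCrl mice. Mice were untreated (NT) or had tissue taken 0.5, 1, 3, 6 or 24 h after electroconvulsive shock (ECS), a current that induces a seizure. Each of the 6 groups held 2 libraries, 1 from a first time course (suffix -1) and 1 from a second (suffix -2). RNA was size selected on a gel and cloned with an Illumina small RNA kit. No allele, transgene or drug separated the groups, and no sham-shocked animals are among the labelled groups. The hippocampus was taken whole, so a level is an average over all its cells.

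Enzymes of the ADAR family convert adenosine to inosine in double-stranded RNA, including the stems of miRNA precursors. Reverse transcriptase reads inosine as guanosine, so an edited miRNA appears in a library as a tag with G at the edited position. The brain is a tissue in which editing of miRNA precursors is well known, and a change within the seed, the bases near the 5′ end that pair with targets, changes which messages can be bound. Sequencing errors and tags of closely related miRNAs yield the same kind of difference, so A-to-G reads were set beside the other substitutions.

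The most abundant A-to-G tag at the leading sites is printed after the hairpin's own tag of the same length, because these pairs carry the levels described in this report. The capital marks the base that differs. Positions count from 1 at the first base of the arm's most abundant exact tag.
miR-376b-3p, exact: atcatAgaggaacatccactt
miR-376b-3p, position 6: atcatGgaggaacatccactt
miR-376c-3p, exact: aacatAgaggaaatttcacgt
miR-376c-3p, position 6: aacatGgaggaaatttcacgt
miR-411-5p, exact: tagtAgaccgtatagcgtac
miR-411-5p, position 5: tagtGgaccgtatagcgtac
miR-379-5p, exact: tggtAgactatggaacgtag
miR-379-5p, position 5: tggtGgactatggaacgtag
miR-381-3p, exact: tatAcaagggcaagctctctgt
miR-381-3p, position 4: tatGcaagggcaagctctctgt
miR-151-3p, exact: ctAgactgaggctccttgag
miR-151-3p, position 3: ctGgactgaggctccttgag
miR-497-5p, exact: cAgcagcacactgtggtttg
miR-497-5p, position 2: cGgcagcacactgtggtttg

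A further 3 pairs are shown because their A-to-G tags had high counts that could not be read in the same way. The first A-to-G tag, assigned to miR-98-5p, equals let-7a and let-7c but for its end, and the second, assigned to miR-34b-5p, equals miR-34c but for its end. Both have the end of their own hairpin, so an A-to-G change and a changed end of the relative cannot be told apart. The last has high counts of A-to-C and A-to-T beside it.
miR-98-5p, exact: tgaggtagtaAgttgtattg
miR-98-5p, position 11: tgaggtagtaGgttgtattg
miR-34b-5p, exact: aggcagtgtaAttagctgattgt
miR-34b-5p, position 11: aggcagtgtaGttagctgattgt
miR-485-5p, exact: agaggctggccgtgAtgaat
miR-485-5p, position 15: agaggctggccgtgGtgaat

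Depth differed between libraries. Accepted reads were fewest in 6h-2 (1897490) and most in 0.5h-2 (7657222), and reads matching a hairpin exactly from 439734 in 6h-1 to 4284186 in NT-2. One-mismatch reads numbered 29.4 ± 13.9 per 100 exact reads in the first time course and 12.6 ± 2.63 in the second (SD, n = 6 each), with the highest value, 53.7, in 6h-1. NT-1, the only untreated library of the first time course, had 11.01, below the other 5 of that course (24.8 to 53.7) and inside the range of the second (7.51 to 14.9). The study's own summary of read classes numbers the 2 untreated libraries the other way round from the deposited labels. The labels were followed here. The numbers of sites called between the time courses are also given without the untreated libraries. The values given for single sites and for substitution rates between the time courses include them.

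A-to-G was not the most frequent difference among the 12 possible substitutions. Summed over the libraries its rate was 0.438% of the exact bases, below T-to-G (0.819%) and T-to-C (0.545%) and above A-to-C (0.295%) and A-to-T (0.277%). It made up 11.9% of all one-mismatch counts. The A-to-G rate was 0.600% ± 0.207 in the first time course and 0.373% ± 0.0753 in the second (SD, n = 6 each), and 5 of 6 time points had the lower rate in the second. The exception was the untreated pair, whose numbering is in question, with 0.361% in NT-1 and 0.368% in NT-2. A two-sided exact permutation test, which exchanged the libraries of each time point in all 64 ways, gave p = 0.0625 (0.0833 after Benjamini-Hochberg adjustment over the 12 substitutions; the smallest unadjusted p possible is 0.0312). T-to-C had 1.51% ± 0.848 in the first and 0.262% ± 0.0819 in the second, with the lower rate in the second at each of the 6 time points (same exact test, p = 0.03125, adjusted 0.0833). Summed over sites, A-to-G tags lay within the range of the other read differences, so each adenosine was compared with its own A-to-C and A-to-T counts.

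At each adenosine, A-to-G counts were compared with the mean of A-to-C and A-to-T counts in the same libraries (edgeR quasi-likelihood test, columns scaled by TMM, library as a block). Of 902 sites with at least 10 one-mismatch counts, 286 were higher in A-to-G at an adjusted p under 0.05, which is 31.7% of those tested, and 197 were lower. The level of a site is the share of A-to-G counts among A-to-G and exact counts covering it. The median level was 0.247% over the 902 sites and 0.381% over the 286. Only 48 sites (5.32%) combined the excess with a level of 1% or more, and 10 of these reached 10%. The levels of 3 of those 10 fell below 2% once tags close to another hairpin were left out.

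Adenosines of the miR-376 family, encoded together on distal chromosome 12, held the highest level at a site with over 100 A-to-G counts that did not come from tags close to another hairpin. At position 6 of miR-376b-3p, within the seed, G was read 27687 times and A 9648 times, against 89 reads of C and 35 of T. The level was 74.2% of the summed counts. The adenosine is at chr12:109723513 (GRCm38, plus strand), in the hairpin Mir376b at chr12:109723458-109723539. The excess over A-to-C and A-to-T was 8.88 ± 0.34 on the log2 scale (SE, edgeR, adjusted p = 4.42e-38). Across the 12 libraries the level ran from a lowest of 65.9% in 0.5h-2 (95% Wilson interval 64.6 to 67.2) through a median of 74.6% to a highest of 89.2% in 3h-2 (87.4 to 90.7). G outnumbered A in every library. The intervals, which cover counting error only, are narrow beside the spread between libraries, which differ in mouse, time after ECS and time course.

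In the first time course the levels of this site in miR-376b-3p were 83.8% in NT-1, 71.5% in 0.5h-1, 72.0% in 1h-1, 73.7% in 3h-1, 70.3% in 6h-1 and 72.7% in 24h-1. The untreated library was the highest of these 6. In the second they were 77.2% in NT-2, 65.9% in 0.5h-2, 85.4% in 1h-2, 89.2% in 3h-2, 75.6% in 6h-2 and 76.6% in 24h-2. Here NT-2 lay inside the range of the ECS libraries. The mean was 80.5% over the untreated libraries and 75.3% over the 10 ECS libraries, and this difference was within the spread between libraries (exact permutation test over the 66 choices of 2 libraries of 12, two-sided, p = 0.364).

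Position 6 of the paralogue miR-376c-3p (chr12:109722775, hairpin Mir376c at chr12:109722718-109722803) also carried G, at a lower level. Its 554 A-to-G counts stood against 1593 exact counts, 8 of A-to-C and 1 of A-to-T, a level of 25.8% (excess 6.70 ± 0.33 log2, SE, edgeR adjusted p = 9.76e-31). The level ran from 15.8% in 0.5h-2 (95% Wilson interval 12.02 to 20.37) through a median of 26.7% to 47.9% in 3h-2 (39.1 to 56.8). As at miR-376b-3p, the lowest and highest libraries were 0.5h-2 and 3h-2. Depth was thin at this site, with 38 covering counts in NT-1. The third paralogue on the list, miR-376a-3p, was the most abundant and the least changed at that position. Its position 6 was read as G 206 times against 124983 exact counts, a level of 0.165%, and its excess over the other bases was 0.57 ± 0.28 log2 (adjusted p = 0.045, edgeR). That call was lost in most alternative settings. All 3 adenosines lie between U and G on their hairpins. In miR-376a-3p, positions 8, 11 and 12 were also called, at levels of 0.559%, 0.460% and 0.742%, and position 12 had the largest excess of the 4 (2.41 log2). At position 8 A-to-C was more frequent than A-to-G, with 781 counts against 702, and A-to-T had 150. A-to-G exceeded only their mean there. A-to-G, A-to-C and A-to-T had 578, 338 and 229 counts at position 11, and 934, 260 and 69 at position 12.

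The neighbouring hairpins miR-379 and miR-411, at the start of the same cluster, each carry an adenosine between U and G at position 5, within the seed. At miR-411-5p (chr12:109710194, hairpin Mir411 at chr12:109710175-109710256) G was read 15452 times, A 64179 times, C 59 times and T 18 times. Its level was 19.4% and its excess 8.64 ± 0.31 log2 (SE, edgeR adjusted p = 1.67e-39), the lowest p of all sites tested. Levels in the first time course were 14.6% in NT-1, 13.7% in 0.5h-1, 12.9% in 1h-1, 19.0% in 3h-1, 9.23% in 6h-1 and 14.9% in 24h-1. In the second they were 23.0% in NT-2, 22.2% in 0.5h-2, 28.5% in 1h-2, 34.6% in 3h-2, 14.8% in 6h-2 and 23.0% in 24h-2. The 3 h library was the highest and the 6 h library the lowest in both time courses, and the second was higher at 6 of 6 time points. These orders were seen in the data and rest on 1 library per time point and time course.

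At miR-379-5p (chr12:109709069, hairpin Mir379 at chr12:109709060-109709125) G was read 7064 times at position 5 and A 72515 times, a level of 8.88% (excess 6.34 ± 0.33 log2, SE, edgeR adjusted p = 1.50e-29). The first time course gave 6.31% in NT-1, 7.19% in 0.5h-1, 4.54% in 1h-1, 1.95% in 3h-1, 3.82% in 6h-1 and 8.0% in 24h-1. The second gave 10.5% in NT-2, 13.4% in 0.5h-2, 11.7% in 1h-2, 12.3% in 3h-2, 5.23% in 6h-2 and 10.7% in 24h-2. Unlike miR-411-5p, the 3 h library was the lowest of the first time course. In the second time course the 6 h library stood below the other 5. Positions 7 and 10 of miR-379-5p were called at 0.433% and 0.261%, and position 2 of miR-411-5p at 0.142%.

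Changes in the seed alter the set of messages a miRNA can pair with. The edited seed of miR-376b-3p (bases 2 to 8, UCAUGGA in place of UCAUAGA) and that of miR-411-5p (AGUGGAC in place of AGUAGAC) are held by 0 of the mouse mature miRNAs in the RefSeq table. The edited seed of miR-379-5p (GGUGGAC in place of GGUAGAC) is that of mmu-miR-7672-5p, and the edited seed of miR-376c-3p (ACAUGGA in place of ACAUAGA) is that of mmu-miR-7232-5p. A shared seed is a match of letters and says nothing of target use.

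The case of miR-381-3p needs more care, since its A-to-G tags start like another miRNA of the same cluster. At position 4 (chr12:109726873, hairpin Mir381 at chr12:109726822-109726896) 405 A-to-G counts stood against 5535 exact ones, a level of 6.82% (excess 6.37 ± 0.41 log2, SE, edgeR adjusted p = 7.51e-24). The edited seed, AUGCAAG, is that of mmu-miR-300-3p, and the first 20 bases of the edited tag equal miR-300-3p. Tags cut to 20 bases with G at position 4 were counted 3756 times and belong to miR-300 by exact match, so they are not among the A-to-G counts. All of the 405 counts are therefore close to another hairpin, and with such tags left out the level is listed at 0. The 22-base tags end differently in miR-381 and miR-300. Those with the miR-381 end had G in 342 reads and A in 2016, a level of 14.5% over this length alone. In the 9 libraries with at least 10 such reads it ran from 5.36% through a median of 14.3% to 25%. Position 7 of miR-381-3p had a level of 2.17% and position 12 of 1.00%, the latter with 56 A-to-G counts beside 57 of A-to-C and 6 of A-to-T. Position 7 of miR-300-3p, the same adenosine of the shared sequence, had 2.26%, and 4 of 5 sites tested on miR-300 were called.

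Outside the chromosome 12 cluster, lower levels were found in the seeds of other miRNAs on the list of known edited ones. Position 3 of miR-151-3p (chr15:73254838, minus strand, in an intron of Ptk2, which encodes a focal adhesion kinase) had 926 A-to-G and 18797 exact counts, a level of 4.70% (excess 5.58 ± 0.31 log2, SE, edgeR adjusted p = 7.09e-28). Its levels ran from 2.66% in 24h-2 through a median of 4.66% to 7.68% in NT-1. It was higher in the first time course at 4 of 6 time points. Position 5 of the same arm was called at 0.647% and position 4 of miR-151-5p at 0.954%.

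Position 2 of miR-497-5p (chr11:70234731) had 250 A-to-G and 6465 exact counts, a level of 3.72% (excess 4.69 ± 0.35 log2, SE, edgeR adjusted p = 2.58e-20). The lowest library was 3h-1 with 0.571%, the median 3.85% and the highest 3h-2 with 6.85%. Position 3 of miR-99b-3p (chr17:17830234, in an intron of Spaca6) had 56 against 1296 counts, 4.14%, with libraries between 0 and 12.5%. At miR-378a-3p the adenosine at position 16, outside the seed, had a level of 4.23% over 18544.5 A-to-G counts. Fractions of a count arise because tags that fit several hairpins were split between them, and position 16 of miR-378c-5p, at 3.31%, shares its tags with this site.

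On the list of 24 miRNAs known from the literature to be edited, 17 had an arm over the limit. Of their 99 sites tested, 30 were called (30.3%, beside 31.7% over all sites), so the list did not stand out in the number of sites. It held 11 sites with a level of 1% or more (11.1% of its sites, beside 5.32% over all), and these lay in 9 miRNAs. The median level over the list's sites was 0.223%, close to the 0.247% over all. The remaining called sites of the list had levels under 1%: position 4 of miR-376b-3p (0.395%), position 4 of miR-376c-3p (0.564%), position 6 of miR-378a-3p (0.716%), positions 2 and 4 of miR-410-3p (0.451% and 0.249%), position 4 of miR-323-3p (0.518%), position 4 of miR-27a-3p (0.259%), position 4 of miR-142-5p (0.226%), position 8 of miR-497-5p (0.439%) and position 8 of miR-99b-5p (0.567%). No site was called on Mir22, Mir299a or Mir487b. No site was tested on Mir299b, Mir539, Mir455, Mir1251, Mir3099, Mir421 or Mir203, whose arms had fewer than 1000 exact counts. In the miR-379/410 cluster, 38 of 123 sites were called (30.9%), and 9 of them (7.32% of its sites), in 7 of its 23 miRNAs with an arm over the limit, reached 1%.

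Several of the highest levels rested on tags close to another hairpin. Position 11 of miR-98-5p had a level of 97.0% (124774 A-to-G counts, 20.8% of all A-to-G counts, against 3898 exact ones). Of its A-to-G counts, 99.99% came from tags whose first 17 bases, or bases 2 to 18, equal another hairpin. Without them the level was 0.324%. Position 11 of miR-34b-5p had 76.2%, and all 4208 of its counts were tags close to another hairpin, with miR-34c the relative of the most abundant one, leaving 0 without them. Position 19 of miR-341-3p had 23.9% from 23.5 A-to-G counts, 95.7% of them close to another hairpin. Position 17 of miR-101c-3p had 10.1%, with 39.5% of its counts close to another hairpin and 6.37% remaining without those. The remaining level still includes the most abundant A-to-G tag of miR-101c-3p, with 764.5 counts. That tag was split with another site that it also fits, so the 6.37% cannot be read as free of related sequences. The origin of this tag was not tested. Over all sites, 102 of the 5220 distinct tags and 27.4% of the A-to-G counts were close to another hairpin.

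Other sites among the 25 with the highest level had lower counts or a weaker excess over the other bases. Position 15 of miR-485-5p had 18.3%, with 3955 A-to-G counts beside 258 of A-to-C and 517 of A-to-T (excess 2.49 ± 0.28 log2, SE, edgeR adjusted p = 4.01e-12). Position 16 of miR-770-3p had 8.70% beside 202 A-to-C and 112 A-to-T counts. Position 18 of miR-676-3p had 43.1% from 31 A-to-G counts, and position 1 of miR-99a-5p, reached by tags that start 1 base earlier, had 12.9% from 52. Position 5 of miR-195a-5p had 118 A-to-G counts, 0 of A-to-C and 1 of A-to-T, a level of 6.06%, with libraries between 0 and 20%. The other 7 sites had levels from 2.74% (position 7 of miR-24-5p) to 6.44% (position 17 of miR-6236-5p). They were position 12 of miR-490-3p (3.48%), position 10 of miR-195a-5p (3.10%), position 15 of miR-370-3p (2.89%) and position 9 of miR-345-3p (2.87%) beside these 2 and the site of miR-378c-5p. At position 10 of miR-195a-5p, the 58.5 A-to-G counts include tags split with another site that they also fit. These A-to-G tags averaged 20.3 bases and the exact ones 21.3, and 15.4% against 61.7% had 22 or more. Their origin was not tested.

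The ends of the tags were compared between A-to-G and exact tags. The rule did not use them directly, but it removed tags that match another hairpin exactly. At miR-376b-3p, 99.4% of A-to-G counts and 97.5% of exact counts began at the arm's main start, with mean lengths of 20.7 and 20.8 bases. At miR-379-5p the shares were 99.7% and 99.8%, with mean lengths of 20.3 and 20.2. At miR-411-5p, whose start varies, they were 39.9% and 49.2%. At position 4 of miR-381-3p the A-to-G tags averaged 21.9 bases and the exact ones 20.9, and 88.9% against 39.9% had 22 or more bases; here the rule removed the shorter tags with G, which match miR-300 exactly. At miR-34b-5p the A-to-G tags averaged 23.0 bases and the exact ones 20.9. Here too the rule removed shorter tags with G, which match miR-34c exactly, so this contrast follows from the rule. At position 9 of miR-345-3p, 10.5% of A-to-G counts began at the main start and 72.9% of exact ones.

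Sequence around the sites was described for the hairpins of GENCODE. Of the 902 sites tested, 7.76% had U before and G after the adenosine (UAG). The share was 12.2% among the 286 called and 12.5% among the 48 with a level of 1% or more, and 6 of the 25 highest sites were UAG: position 6 of miR-376b-3p and of miR-376c-3p, position 5 of miR-411-5p and of miR-379-5p, position 3 of miR-151-3p and position 9 of miR-345-3p. The median level of these 6, which were chosen by their level, was 14.1%. In the wider sets the UAG medians were below those of all sites. They were 0.191% over the 70 UAG sites tested, beside 0.247% over all 902. Over the 35 UAG sites called the median was 0.271%, beside 0.381% over all 286. Among the 25, G followed the adenosine at 17 (68.0%, beside 32.4% of all sites tested). A preceding G was found at 19 of the 48 sites (39.6%, beside 28.6% of all). Tag positions 2 to 8 held 75.2% of the called sites and 43.8% of all. Among the 48 sites with a level of 1% or more the share was 52.1%, and among the 25 it was 40.0%. In the minimum free energy folds, 60.0% of the 25 adenosines were paired, beside 82.5% of all sites tested. The adenosines of miR-376b-3p, miR-376c-3p and miR-151-3p were paired with U, and those of miR-411-5p and miR-379-5p were unpaired. The levels chose the 25 sites, so these shares are descriptions.

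Whether the level changed after ECS was tested at 531 sites with at least 20 A-to-G counts, in one model of A-to-G and exact counts over all 12 libraries (edgeR quasi-likelihood test). No site was called at 0.5, 1, 3, 6 or 24 h, or over all times together (0% of 531 in each comparison). Unadjusted p fell under 0.05 at 3, 1, 4, 8 and 2 sites for the 5 times and at 4 for all times together, and DESeq2 called 0 in each with 2, 1, 2, 8, 0 and 2 sites at an unadjusted p under 0.05. With the time course as a replicate block, edgeR called 1 site at 1 h and the same site at 3 h, position 11 of miR-34b-5p (adjusted p = 0.0362 and 0.0223), whose A-to-G counts are all from tags close to another hairpin. DESeq2 with the block called 0. For the leading sites the fitted change in the log2 odds over all times against untreated was -0.40 ± 0.77 at miR-376b-3p, -0.21 ± 0.78 at miR-376c-3p, -0.02 ± 0.78 at miR-411-5p and -0.27 ± 0.83 at miR-379-5p (SE). Standard errors of this size leave changes of 2-fold in either direction undecided. In simulated data with a 4-fold change in odds at 1 time, the test called 5 of 199 changed sites. With 0 calls at each time, changes of that size at single times remain undecided as well. Among the 52 named sites covered in all 12 libraries, the exact permutation test over 66 choices gave its lowest p, 0.0455, at position 1 of miR-99a-5p and position 6 of miR-378a-3p. These p-values are not adjusted, and the smallest the design allows is 0.0152. Each library had the same weight whatever its depth. The site of miR-99a-5p had 1 covering count in 1h-1 and in 3h-1, 2 in 6h-1 and in 6h-2, and 14 in NT-1. With the time courses kept as blocks (36 choices of 1 library from each), p was 0.0556 at both sites and under 0.05 at 0 of the 52.

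The time courses were compared over 6 libraries each, against 2 libraries per time after ECS, so the numbers of calls cannot be set against each other. Of the 531 sites, 19 were higher in the second (3.58%) and 113 lower (21.3%) at an adjusted p under 0.05 (edgeR, time point as a covariate). Among the 10 sites with the lowest p, 7 lay in the let-7 family and were lower in the second, at mean levels under 5% in both. Position 3 of let-7c-5p had a level of 1.81% ± 0.92 in the first and 0.112% ± 0.020 in the second (SD, n = 6 each), a difference of -3.86 ± 0.53 in log2 odds (SE, edgeR adjusted p = 7.26e-11). The same position of let-7i-5p, let-7b-5p, let-7f-5p, let-7a-5p and let-7g-5p, and position 10 of let-7e-5p, fell by 3.38 to 3.72 on this scale, beside which position 7 of miR-379-5p differed by -3.59. Position 17 of let-7c-5p was higher by 4.54 ± 0.59 (adjusted p = 1.13e-11), and its A-to-G counts were all close to another hairpin. It had 17072 A-to-G counts beside 108563 of A-to-T and 8351.67 of A-to-C. Position 15 of miR-485-5p had 4.76% ± 4.24 in the first and 27.9% ± 7.28 in the second time course (SD, n = 6 each), higher by 3.34 ± 0.48 (adjusted p = 6.15e-10).

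At the leading sites the time courses differed less. The difference in log2 odds, second minus first, was 0.40 ± 0.45 at miR-376b-3p (adjusted p = 0.569, edgeR) and 0.35 ± 0.49 at miR-376c-3p (adjusted p = 0.667). It was 0.97 ± 0.46 at miR-411-5p (adjusted p = 0.108) and 1.17 ± 0.46 at miR-379-5p (adjusted p = 0.0488). At position 3 of miR-151-3p it was -0.35 ± 0.46 (adjusted p = 0.641). At position 4 of miR-381-3p, whose tags are close to miR-300, it was 2.34 ± 0.57 (adjusted p = 0.000627). This level depends on tag length, since shorter tags with G go to miR-300 while shorter exact tags are kept. Exact tags of 20 bases outnumbered those of 22 in every library of the first time course. In the second they did so only in 6h-2 (86 against 72). The part of tag length in this difference was not tested. Read differences as a whole moved between the time courses as well, and not in one direction for every base that precedes the adenosine. A-to-G was read at 0.805% ± 0.257 of exact counts in the first and 0.247% ± 0.0718 in the second time course after G (SD, n = 6 each, here and for the other bases). After U, the base before the adenosines of miR-376b-3p, miR-411-5p and miR-379-5p, it was 0.659% ± 0.279 and 0.276% ± 0.0187. After C it was 0.448% ± 0.158 and 0.290% ± 0.115. After A it was the other way round, 0.368% ± 0.124 and 1.24% ± 0.628. The sites after A include position 11 of miR-98-5p, with 124774 A-to-G counts, 99.99% of them close to another hairpin. Its A-to-G counts ran from 160 (6h-1) to 1987 (0.5h-1) in the first time course. In the second they ran from 4258 (6h-2) to 31915 (24h-2). The rate after A without this site was not computed. The part of these general differences in the differences at single sites was not tested.

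The arms just inside the limit of 1000 exact counts were miR-146-5p (1008, with 15 A-to-G counts over its sites, 0.248%) and miR-342-5p (1036, with 14, 0.668%). Just outside it were miR-135a-5p (997, with 10, 0.499%) and miR-1298-3p (996, with 8, 0.201%).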

How the data were processed

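Small-RNA libraries of individual mice were sequenced on an Illumina Genome Analyzer. The authors removed adapters and deposited, per library, each distinct insert of at least 18 nt with its read count; these counts are not normalized and precede alignment to the genome (NCBI assembly 37). Here tags were matched to the 2202 hairpins and other small RNAs of GENCODE M21 (GRCm38), exactly or with 1 substitution at tag positions 2 to 17, and split equally between hairpins they fit. Hairpin loci of 1 mature name were pooled. Accepted reads ranged from 1897490 to 7657222 per library. Reads were amplified without molecular identifiers, so Wilson intervals (95%) cover counting error only.

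Excess of A-to-G and changes in level were tested with edgeR 4.0.16 (quasi-likelihood, adjusted p under 0.05), with DESeq2 1.42.0 as an alternative. Level tests took sites with at least 20 A-to-G counts and 10 covering counts in at least 10 libraries. Rates and single sites were tested by exact permutation with Python 3.11.15 and scipy 1.17.1. Hairpins were folded with RNAfold 2.7.2. The fits were tested on simulated data. Mature sequences came from RefSeq (GRCm38.p6), tags from the deposited files.

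Members and lists were chosen with earlier results of these data known. Named sites are the 25 with the highest level of at least 1% among those called, each called site of the known edited miRNAs, and up to 10 called per comparison. Where a site or library is singled out for its order, it was chosen after its values were seen.

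The study states that replicate numbers mark the time courses. Deviations of same-numbered libraries from their group means correlated at r = 0.205 to 0.633 over 15 pairs of time points, so the numbers were taken to pair the libraries.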

Additional observations from a re-analysis of the deposited data

Results flagged for a closer look

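In 113 sets of 6 libraries (named sites and substitution rates, each time course apart), 14 libraries stood apart from the other 5 by Dixon's criterion; chance alone flags about 1 in 20 sets, or 5.65 here. The level at position 6 of miR-376b-3p was 83.8% in NT-1, against 70.3 to 73.7% in the other libraries of the first time course. NT-1 also stood apart at position 17 of miR-101c-3p (29.7%), position 16 of miR-378a-3p (7.77%) and position 16 of miR-378c-5p (8.31%), the last pair sharing tags. Library 6h-1, with the fewest exact hairpin reads, stood apart at position 10 of miR-195a-5p (11.1%), position 6 of miR-376a-3p (0.667%) and position 2 of miR-410-3p (1.88%), and in its rates of A-to-C (0.603% of exact bases) and C-to-G (0.673%). Library 1h-1 did so at position 17 of miR-6236-5p (14.3%). Library 6h-2 was low at position 5 of miR-379-5p (5.23%, against 10.5 to 13.4%) and position 4 of miR-323-3p (0%), and in its rates of A-to-G (0.229%) and T-to-G (0.217%). Library 6h-2 had the fewest accepted reads and the fewest one-mismatch reads per 100 exact reads (7.51).

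In some items all 5 ECS libraries lay on one side of the untreated library in the first time course and on the other side in the second; this difference was not tested. The mean difference, ECS minus untreated, was -20.7 percentage points in the first and 4.04 in the second at position 17 of miR-101c-3p, -4.93 and 2.05 at position 16 of miR-378a-3p, and -5.29 and 1.45 at position 16 of miR-378c-5p. It was 0.551 and -0.649 at position 5 of miR-151-3p, 0.228 and -0.0781 at position 6 of miR-376a-3p, 0.643 and -0.0487 at position 10 of miR-379-5p, and 0.219 and -0.0491 at position 2 of miR-411-5p. For the rate of A-to-C it was 0.121 and -0.0643 percentage points. Each rests on 1 untreated library per time course.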

How the results depend on the processing

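The count of sites higher in A-to-G (286) fell to 182 with tags of at least 2 counts, to 170 on arms with 10000 exact counts and to 164 with G set against the higher of C and T; leaving out 1 library gave 245 to 279. Without tags close to another hairpin, an alternative chosen after seeing the data, the excess reversed at position 11 of miR-98-5p (-4.46 log2) and of miR-34b-5p (-7.71 log2), since nearly all of their A-to-G tags are removed. Between the time courses, sites lower in the second fell from 113 to 68 with tags of at least 2 counts. Leaving out 1 library gave 56 to 138 lower and 12 to 29 higher; the lowest came without a 0.5 h library (56), a 1 h library (62) or, for higher sites, a 3 h library (12), and without a 6 h library 29 were higher. With time point as a covariate, leaving out either library of these time points gave the same counts, so the range reflects whole time points. Without the untreated libraries 19 were higher and 138 lower. With the replicate block 1 site was called at 1 h and 1 at 3 h, and the block changed no other call after ECS. Leaving out 1 library gave 0 calls at each time after ECS and over all times. The A-to-G rate, second minus first time course, was -0.227 percentage points, and -0.350 without tags close to another hairpin (exact permutation test, p = 0.03125); leaving out 1 time point gave -0.274 to -0.129. Other causes of these shifts were not tested. Of single sites, position 4 of miR-376c-3p, position 8 of miR-497-5p, position 12 of miR-381-3p and position 6 of miR-376a-3p lost their excess in several settings. Tags that also match elsewhere in the genome were not removed, since no genome was used here; leaving out tags that match a transcript (chosen after seeing the data) gave 267 sites. Low counts limit the levels of sites with under 100 A-to-G counts.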

Other observations

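Position 7 of miR-3099-3p, an arm outside the limit with 622 exact counts, was singled out after its values were seen, from the members of the list with no site tested. G was read there 14706 times and A 622 times, beside 20 reads of C and 9 of T, a level of 95.9%. The adenosine is at chr7:6803644 (GRCm38, plus strand, hairpin at chr7:6803587-6803670), between U and G and within the seed. The most abundant tag pair is shown with the differing base in capitals, since the A-to-G tag outnumbers the annotated one.
miR-3099-3p, exact: taggctAgagagaggttgg
miR-3099-3p, position 7: taggctGgagagaggttgg

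The level ran from 94.3% in 24h-2 through a median of 96.2% to 97.3% in 3h-1, with 462 to 2031 covering reads per library. It was 96.2% ± 1.00 in the first and 95.9% ± 0.94 in the second time course (SD, n = 6 each), and 0% of its counts were close to another hairpin. A limit set on exact counts left this arm out because most of its reads carry the A-to-G difference. A difference of the mouse genome from the annotated hairpin at this base was not tested, since no genome was used here.

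Below the limit, position 6 of miR-1251-5p had 31 A-to-G counts and 59 exact ones (34.4%), position 7 of miR-376b-5p 34 and 174 (16.3%), position 5 of miR-376a-5p 38 and 304 (11.1%), and position 7 of miR-421-3p 31 and 416 (6.94%).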
